A study of Drosophila melanogaster with 4 samples.

Results

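CBP occupancy was examined at the loci of 4 genes in gd7 and wild-type *Drosophila melanogaster* embryos. The genes were *oc*, *btd* and *ems*, which pattern the embryonic head, and *E5*, the neighbour of *ems*. The 3 loci held 16 of the 4952 CBP-bound regions listed for both genotypes, with 4 of 1939 regions in gd7 and 12 of 3013 in wild-type. Members were taken by position alone: every listed region that overlapped X from 8500000 to 8570000 (*oc*), X from 9570000 to 9600000 (*btd*) or 3R from 9690000 to 9750000 (*ems* and its neighbour *E5*), on release 5 of the genome. The gd7 embryos came from mothers homozygous for the gd7 allele and lack Dorsal in their nuclei, and the wild-type embryos came from w1118 mothers. All embryos were 2 to 4 hours old and untreated. For each genotype 1 CBP library, made from several pooled immunoprecipitations with a rabbit antibody against *Drosophila* CBP, and 1 input library were sequenced. No difference between the genotypes therefore has a replicate check, and no test was made.

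*oc* (*orthodenticle*), *btd* (*buttonhead*) and *ems* (*empty spiracles*) are known as head gap genes. They are expressed in broad, overlapping stripes across the anterior blastoderm, and loss of any of them removes adjacent head segments. *oc* and *ems* encode homeodomain transcription factors and *btd* a zinc finger factor of the Sp family, while *E5* is a homeobox gene beside *ems* that resembles it in sequence. CBP, the product of *nejire* (*nej*), is a histone acetyltransferase that transcription factors bring to enhancers and promoters. *gd* encodes a protease made by the mother that acts in the cascade leading to the Toll ligand, and without it Dorsal does not enter the nuclei and the cells take the fate of dorsal ectoderm. Whole embryos were used, so fewer cells with CBP at a site and less CBP per cell cannot be told apart.

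The value of a region is its log2 enrichment of CBP ChIP over input, taken over the highest 5 consecutive values of the smoothed profile. The authors did not normalize the genotypes to each other, and the constant added back to the deposited values is described with the processing. A region was listed only if it reached the top 5% of the values in its own genotype over at least 200 bp. The lowest listed value was 1.93 in gd7 and 1.88 in wild-type, and the shortest listed region had 210 bp in each. A region of one genotype was counted as shared with the other where the 2 lists had 1 bp or more in common. A wild-type region with no gd7 partner was therefore below 1.93 in gd7, or lay in a stretch too short to be listed, and its gd7 value is not known. The lists hold no read counts, so the depth behind a single region and its counting error are not known.

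Fewer CBP regions were listed at the head gene loci in gd7 than in wild-type embryos, and those listed were lower. In gd7 the 4 regions covered 1190 bp with a mean value of 2.44 and a highest value of 2.79, whereas in wild-type the 12 regions covered 5600 bp with a mean of 3.09 and a highest value of 4.31. Only 2 wild-type regions, at *E5* and at *ems*, had a gd7 partner. The other 10 of 12 had none, against 59.6% of all wild-type regions, 61.1% of those on X and 59.2% of those on 3R. In the other direction, 2 of the 4 gd7 regions, both at *oc*, had no wild-type partner, against 37.3% of all gd7 regions. The median value of the members was 2.48 in gd7, where the whole list had 2.53, and 2.92 in wild-type, where the whole list had 2.40. Thus the wild-type members stood above the middle of their list, and the gd7 members did not.

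**Figure D1:**
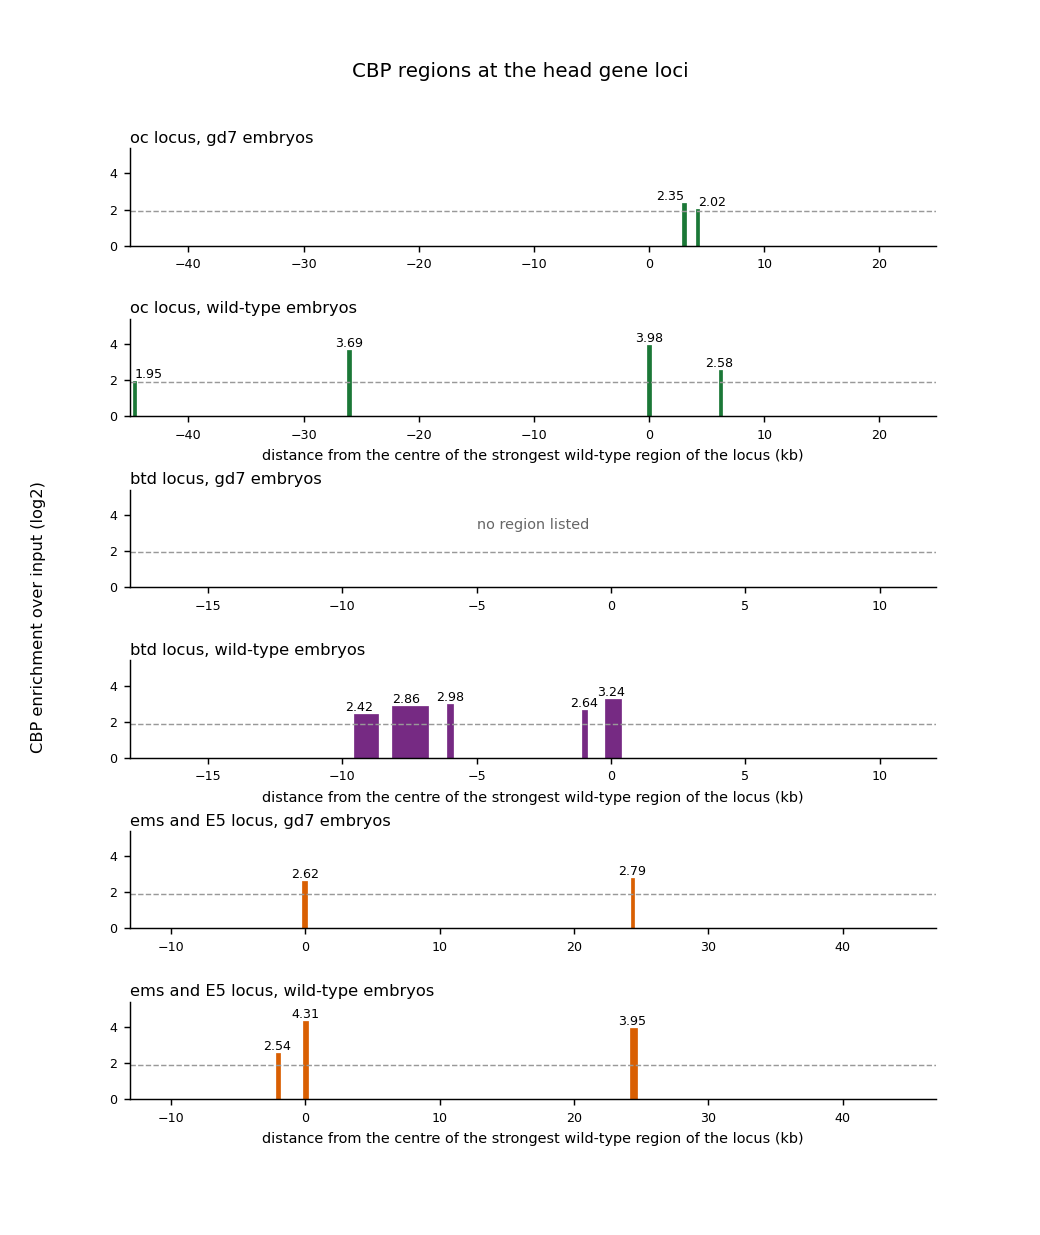
Each bar is a CBP-bound region drawn from its start to its end, with its log2 enrichment over input as height, at the oc, btd and ems-E5 loci in gd7 (upper panel of each pair) and wild-type (lower panel) embryos; the horizontal axis gives the distance in kb from the centre of the strongest wild-type region, and the dashed line the lowest value listed in that genotype. At ems and E5 the 2 gd7 bars of 2.62 and 2.79 stand under the wild-type bars of 4.31 and 3.95, at btd the gd7 panel is empty, and at oc the 2 gd7 bars lie between wild-type bars.

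The strongest region of all 3 loci lay near *E5*, and among regions with a gd7 partner its deficit in gd7 was one of the largest. Its gd7 value was 2.62, on 3R between 9702840 and 9703155, and its wild-type value 4.31, between 9702875 and 9703225. On a linear scale this is 6.13-fold enrichment in gd7 and 19.8-fold in wild-type, a difference of -1.69 on the log2 scale or 3.23-fold less in gd7. The wild-type region ranked 14 of 3013, while the gd7 region ranked 853 of 1939. Of the 1217 wild-type regions with a gd7 partner, only 4 had a more negative difference. The centres were 18 bp apart and the regions overlapped over 280 bp, so both lists mark the same site. *E5* is its nearest gene in the region table of the study.

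A weaker wild-type region nearer to the *E5* promoter was not listed in gd7. Its wild-type value was 2.54, between 9700845 and 9701195, and the same table places it nearer to the *E5* start site than the strong region. This is 0.61 above the lowest listed gd7 value on the log2 scale, so its absence requires a gd7 value only 1.52-fold lower. The nearest gd7 region was the one described above, 2082 bp away between centres. In gd7, then, only the distal of the *E5* regions was listed, and in wild-type the one near the start site was the lower of the pair.

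The *ems* region kept its position and had a lower value in gd7. Its gd7 value was 2.79, between 9727270 and 9727550, and its wild-type value 3.95, between 9727200 and 9727725. This is 6.91-fold enrichment over input in gd7 and 15.4-fold in wild-type. The difference was -1.16, or 2.23-fold less in gd7, and only 43 of the 1217 shared wild-type regions differed by more in that direction. Both regions had their centre at 9727375, for which the study's table gives *ems* as the nearest gene. The gd7 region lay wholly inside the wild-type one and was 280 bp long, against 525 bp in wild-type. The *E5* and *ems* regions were 24343 bp apart in gd7 and 24325 bp apart in wild-type, measured between centres, and no other region was listed between them in either genotype. *E5* and *ems* are direct neighbours among protein-coding genes in the release 6 gene order.

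Both shared regions of the head gene loci were thus lower in gd7 by more than 2-fold. Among all shared wild-type regions, 46.8% were lower in gd7 and 5.92% were lower by more than 2-fold, and the median difference was 0.06. These shares, and the places of both differences among the 1217 shared regions, cover wild-type regions of every height, whereas both head gene regions were high. Of 568 wild-type regions more than 2-fold above the lowest gd7 value, 42.6% were more than 2-fold lower in gd7. Where no partner was listed, that count took the lowest listed gd7 value. The 242 regions counted comprise 72 shared ones and 170 without a partner, and each of the 170 counted as lower by definition. The 42.6% is therefore not a share of shared regions and cannot be set directly against the 2 regions here. In gd7 the *ems* region was higher than the *E5* region by the values above, whereas in wild-type the *E5* region was the higher one. With 1 library per genotype this order has no replicate check.

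Within the *oc* window the gd7 and wild-type regions lay at different sites. In gd7 there were 2 regions, on X from 8547980 to 8548260 with a value of 2.35 and from 8549135 to 8549450 with 2.02. In wild-type 4 regions were listed, from 8500275 to 8500485 with 1.95, from 8518860 to 8519210 with 3.69, from 8544900 to 8545215 with 3.98, and from 8551130 to 8551410 with 2.58. None of the 6 overlapped a region of the other genotype. Over the whole lists, 61.1% of wild-type regions on X and 37.3% of gd7 regions had no partner. A shared region began 0.63 kb beyond the window in wild-type. Both gd7 regions fell into the stretch between the wild-type regions of 3.98 and 2.58. The gd7 region of 2.35 began 2765 bp after the end of the wild-type region of 3.98, and the gd7 region of 2.02 ended 1680 bp before the wild-type region of 2.58.

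The strong *oc* regions of wild-type embryos were the members with the largest known deficit among those not listed in gd7. The region of 3.98 ranked 43 of 3013 in wild-type and had 15.8-fold enrichment. It exceeds the lowest gd7 value by 2.05, so CBP there was at least 4.13-fold lower in gd7, unless a high stretch was too short to be listed. The region of 3.69 ranked 107, with 12.9-fold enrichment, and its deficit in gd7 is at least 3.38-fold on the same terms. The nearest gd7 region to it was 29120 bp away. By contrast, the region of 1.95 at the edge of the window lay only 0.02 above the lowest gd7 value, and for it and the region of 2.58 no deficit of 2-fold can be stated.

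The regions that *oc* held in gd7 alone were weak. They ranked 1286 and 1853 of 1939 in gd7 and had 5.09-fold and 4.05-fold enrichment. They exceed the lowest wild-type value by 0.46 and 0.14 on the log2 scale, so a wild-type value only 1.38-fold or 1.10-fold lower would have left them out. Whether CBP was gained there in gd7 is not shown by these lists.

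**Figure D2:**
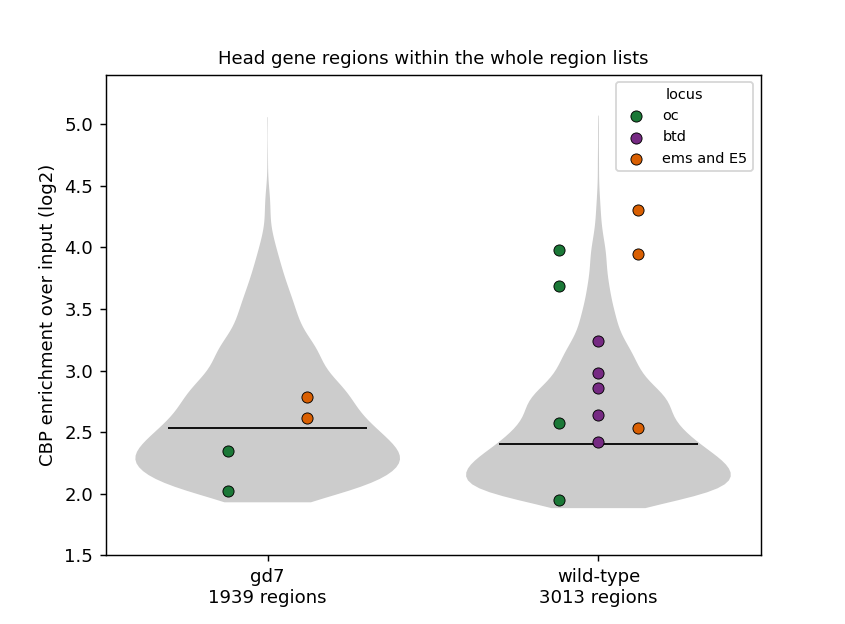
Points give the log2 CBP enrichment over input of each member region, coloured by locus, over the spread of all 1939 gd7 regions (left) and all 3013 wild-type regions (right), drawn as grey outlines whose width follows the number of regions, with a line at the median. The 4 gd7 members lie between 2.02 and 2.79, around the gd7 median of 2.53, while 11 of the 12 wild-type members lie above the wild-type median of 2.40.

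At *btd* no CBP region was listed in gd7 embryos, whereas in wild-type embryos 5 regions lay within 9.94 kb, on X from 9578345 to 9588285. They formed 2 groups. The first held regions from 9578345 to 9579220, from 9579745 to 9581075 and from 9581810 to 9582020, with values of 2.42, 2.86 and 2.98. The second held regions from 9586815 to 9587025 and from 9587690 to 9588285, with 2.64 and 3.24. Between the groups the centres were 4970 bp apart, and within them at most 1750 bp.

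The *btd* regions covered 3220 bp, more than the 1155 bp at *oc* and the 1225 bp at *ems* and *E5* in wild-type, and their lengths went from 210 bp, the shortest length listed, for 2 of them to 1330 bp, where the median wild-type region had 350 bp. Their values lay between 2.42 and 3.24, all above the list median of 2.40, and the strongest ranked 294 of 3013. That region, with 9.43-fold enrichment, was at least 2.47-fold lower in gd7, and the region of 2.98 at least 2.07-fold, unless missed for length. The other 3 would be missing from the gd7 list with a deficit of less than 2-fold. The nearest gd7 region to any of the 5 was 50312 bp away between centres, with a value of 2.75.

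The absence of a gd7 partner from a whole run of wild-type regions was not unique to *btd*. When wild-type regions with centres no more than 10 kb apart were joined, 71 runs of 5 or more regions were found. In 4 of them (5.63%), *btd* included, no region had a gd7 partner. The 59.6% of single wild-type regions without a partner is another measure and cannot be set against this share of runs. The strongest region of the other such runs had 2.75, 2.71 and 2.71, below the 3.24 at *btd*. This count was chosen after the *btd* values were seen, and nothing particular to *btd* is read from it. In the release 6 gene order *btd* lies between *nej*, the CBP gene itself, and *Sp1*, which encodes another Sp-family factor. Which of the 5 regions are nearer to *nej* was not determined, since no release 5 annotation was used here, and the same holds for *oc* and its neighbours *Caf1-180* and *Rubicon*.

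A deficit of more than 2-fold can be stated for 6 of the 12 wild-type regions, 2 at each locus. They comprise both shared regions and 4 of the 10 regions without a partner. Over the whole wild-type list these shares were 8.03% for all regions and 9.47% for regions without a partner. Without a partner, the deficit holds only if no high gd7 stretch was too short to be listed. Such a deficit can be seen only where the wild-type value is high, and the members are high. Of 568 wild-type regions that exceeded the lowest gd7 value by more than 2-fold, 29.9% had no gd7 partner and 42.6% were more than 2-fold lower in gd7 with or without one. All 6 head gene regions of that height were lower by more than 2-fold, for the 4 without a partner on the condition above. No member was more than 2-fold higher in gd7, and neither region listed in gd7 alone exceeded the lowest wild-type value by that much. Over the whole gd7 list, 188 of 1939 regions were that much higher, among them 91 of the 724 without a wild-type partner. With only 4 gd7 members, nothing is read from this absence.

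**Figure D3:**
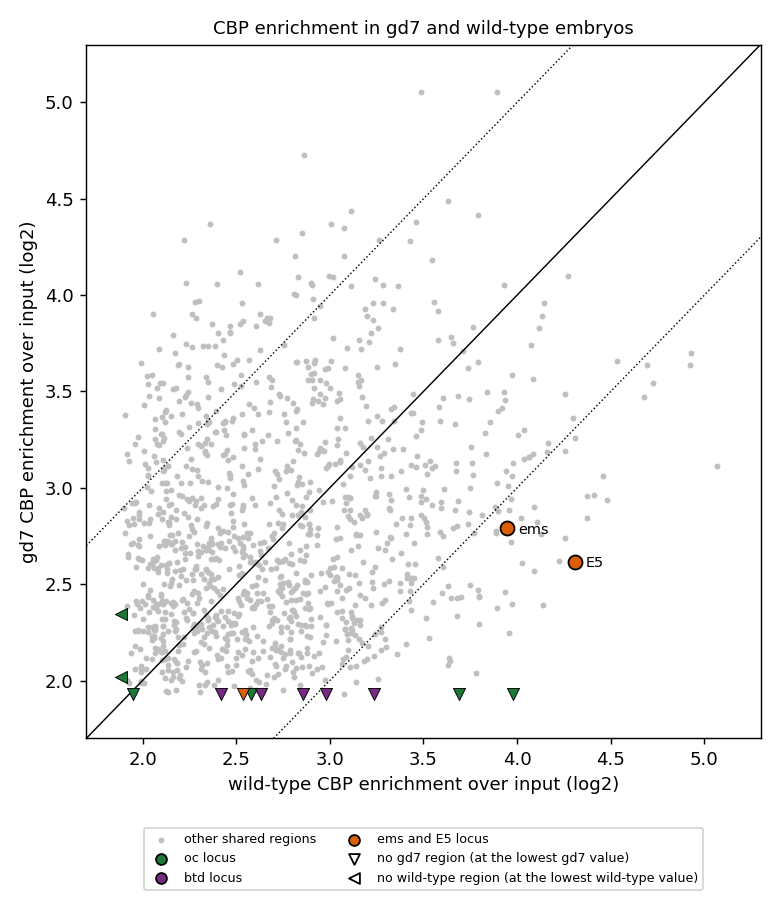
Grey points are wild-type CBP regions with a gd7 partner, placed by their wild-type (horizontal) and gd7 (vertical) log2 enrichment over input; the solid line marks equal values and the dotted lines a 2-fold difference, and triangles set member regions without a partner at the lowest listed value of the other genotype. The ems and E5 points lie below the lower dotted line with differences of -1.16 and -1.69, as do 4 triangles of oc and btd.

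Within 100 kb on either side of the windows, 14 further regions were listed in gd7 and 27 in wild-type. Of the 27, 17 had no gd7 partner, next to 59.6% of the whole wild-type list. Of the 10 with a partner, 4 were lower in gd7 and 0 were lower by more than 2-fold, next to 46.8% and 5.92% of all shared regions. Of the 17 without a partner, 3 exceeded the lowest gd7 value by more than 2-fold, next to 9.47% of such regions in the list. This comparison was chosen after the members' values were seen and has no test. The edge of the *oc* window matters for its count. A shared region began 0.63 kb beyond it in wild-type, on X from 8570765 to 8571045 with 2.36 in gd7 and from 8570625 to 8571185 with 3.11 in wild-type, a difference of -0.75. The weak wild-type region of 1.95 was the one just inside the other edge. At *btd* the nearest regions outside lay 38.1 kb away in gd7 and 9.26 kb away in wild-type, and at *ems* and *E5* 47.4 kb away in gd7 and 26.4 kb away in wild-type.

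Other genes with a part in head, mouthpart and eye development were for the most part still occupied in gd7, and most of their shared regions had lower values. In a list of 18 such genes, 15 were the nearest gene of a wild-type region in the part of the study's region table used here, which leaves out X and the distal part of 3R. Of their 22 wild-type regions 5 had no gd7 partner and 17 had one, where 59.6% of the whole list had none. Among the 17, 13 were lower in gd7, next to 46.8% of all shared regions, and 4 were lower by more than 2-fold, next to 5.92%. Another 1 was more than 2-fold higher in gd7. The median difference was -0.63, next to 0.06 for all shared regions. With the regions lacking a partner, set at the lowest listed gd7 value, 6 of the 22 were more than 2-fold lower, next to the 8.03% over the whole list. The median wild-type value of these regions, 3.21, also lay above that of the list. The shares over the whole list are therefore not matched for height. Of the 568 wild-type regions more than 2-fold above the lowest gd7 value, 42.6% were more than 2-fold lower in gd7. The 22 regions include lower ones, such as 2.04 at *slp1*, so 6 of 22 cannot be set directly against that 42.6%. Nothing particular to head genes is read from these shares.

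The forkhead gene *croc*, needed in the head, had 3.19 in gd7 and 4.26 in wild-type at its stronger region, a difference of -1.06. At *so*, a homeobox gene of the eye and brain, the values were 1.99 in gd7 and 3.14 in wild-type. *Dfd*, the homeotic gene of the maxillary and mandibular segments, had 3.47 in gd7 and 4.68 in wild-type. The paired forkhead genes *slp1* and *slp2* each had a gd7 partner at the region next to a start site, with 2.77 in gd7 and 3.59 in wild-type at *slp1* and with 2.73 in gd7 and 3.04 in wild-type at *slp2*, while a second wild-type region at each, with 2.04 and 2.87, had no gd7 partner. *bcd*, the maternal activator of head gap genes, had a wild-type region of 3.28 with no partner, and so did *pb*, a homeotic gene of the mouthparts, with 3.47 at the stronger of its regions.

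Not every region of a head gene was lower. At *opa*, a zinc finger gene that acts in segmentation and the head, the promoter region had 2.46 in gd7 and 3.94 in wild-type, whereas a distal region had 3.38 in gd7 and 2.21 in wild-type and the most distal one 2.89 in gd7 and 2.31 in wild-type. The gap gene *kni* had 2.67 in gd7 and 2.31 in wild-type, and the weaker region of *pb* had 2.26 in gd7 and 1.97 in wild-type. Of the 4 genes treated here, only *oc* had gd7 regions without a wild-type partner.

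Genes of the germ layers were set beside the genotype labels. Of 6 wild-type regions nearest to the mesoderm genes *twi*, *sna* and *Mef2*, 5 had no gd7 partner, next to 59.6% of the whole list. The 1 with a partner, at *sna*, had 2.60 in gd7 and 2.62 in wild-type. All 10 wild-type regions nearest to the dorsal ectoderm genes *ush*, *tup*, *zen*, *Doc1*, *Doc2* and *Doc3* had a gd7 partner. Of these, 3 were more than 2-fold higher in gd7, but 4 were lower in gd7, with differences of -0.85 at *Doc2*, -0.78 at *Doc3*, -0.61 at *tup* and -0.13 at *Doc1*. The region lists alone are thus a weak check of the labels. Of 5 neuroectoderm genes, *sog*, *brk*, *rho*, *vnd* and *ind*, 2 had a region in the table used, *ind* with a partner and *rho* without. The part used leaves out X, so a gene with no region in it is not shown to lack CBP. For *brk* the paper reports reduced CBP occupancy in gd7. Whether the lack of ventral cell types accounts for any value at the head gene loci was not tested.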

How the data were processed

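CBP ChIP-seq and input libraries of gd7 and wild-type embryos (1 of each per genotype) were sequenced by the authors on a SOLiD instrument, and the reads were mapped to release 5 of the genome. The deposited lists give, per genotype, the position and the log2 ratio of ChIP over input of each region, less a constant. The authors kept the highest 5% of the smoothed ratio values, merged neighbouring ones into regions no shorter than 200 bp, and did not normalize the genotypes to each other. The constant, 1.93 in gd7 and 1.88 in wild-type, was the median difference to the authors' own region table (170 gd7 and 1999 wild-type regions matched, largest deviation 5.0e-06), and was added back. That table, held in part, also named the nearest gene of regions outside X.

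Overlaps were counted in Python 3.11.15 and plotted with matplotlib 3.10.9, and the counting was checked on simulated regions. Where several gd7 regions overlapped a wild-type region, the highest was taken. Every member is named or counted, with all shared regions and the strongest of each genotype in full. Members, gene lists and alternatives were chosen with earlier results of these data known. Gene order came from a RefSeq table of release 6, used for names and neighbours only. A planned search for sequence motifs in promoters was not run, and the inputs entered only through the ratio. Read depth per region is unknown.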

Additional observations from a re-analysis of the deposited data

How the results depend on the processing

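Of 95 recomputed values, 4 moved, and 46 belong to counts reported as 0. Many of these 46 could not move (no gd7 region at *btd*, or a stricter overlap at *oc*), so those that stayed at 0 say nothing about stability. With wider windows, counts of 0 at *oc* did move. Of the other 49, 47 stayed close to the reported count or log2 difference (counts within 1.5 times), although gd7 region counts could not move where only the wild-type list was shortened. The overlap rules (at least 50% of the shorter region, or centres within 200 bp) and a wild-type list cut to its 1939 strongest regions (2.25 and above) left both shared regions at *ems* and *E5* in place. A cut-off of 2.5 in both lists left 0 gd7 regions at *oc*, and so 0 without a wild-type partner. Windows wider by 10 kb gave *oc* 1 shared wild-type region, which is also the 1 lower in gd7, where the reported counts are 0. The effect of the window edges on shared counts was an alternative chosen after seeing the data. Without the added constant the differences were -1.74 at *E5* and -1.21 at *ems*, and after centring on the median -1.75 and -1.22. No paired analysis was possible because each genotype has 1 CBP library. A gd7 value below 1.93 is not listed, so a lost region cannot be told from a reduced one.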
